A study of Mus musculus with 36 samples.

Results

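The 8 genes described here are the TAM receptors and the proteins that work with or beside them in the clearance of dying cells. They were taken by symbol from a table of 36172 gene rows measured in 36 libraries, and 8 of 8 symbols were found. The receptors are Axl, Mertk and Tyro3, the TAM ligands are Gas6 and Pros1, and the others are the bridging protein Mfge8 and the clearance receptors Megf10 and Stab1.

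Dying cells show phosphatidylserine on their surface. Gas6 and protein S (Pros1) bind this lipid at one end and a TAM receptor tyrosine kinase at the other, so that a phagocyte can attach and engulf, while Mfge8 bridges the same lipid to alpha-v integrins. In brain, Mertk and Axl are known from microglia, with Mertk also in astrocytes, Tyro3 is best known from neurons, and Megf10 and Mfge8 are known from astrocytes. Stab1 encodes stabilin-1, a scavenger receptor of macrophages that also binds phosphatidylserine.

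The samples were hippocampi of Cx3cr1-NuTRAP mice. In these animals tamoxifen activates a cre recombinase driven from the Cx3cr1 promoter, which is active in microglia and other brain macrophages, and the cre switches on a GFP tag on the ribosomes of those cells. Translating ribosome affinity purification (TRAP) with an antibody to GFP then enriches their RNA, and the input is whole-tissue RNA set aside from the same homogenate. Every animal carried the transgenes and was induced, so no group lacks cre or tamoxifen. The inputs came from 10 young animals of 6 months with early induction (5 females, 5 males), 12 old animals of 22 months with early induction (7 females, 5 males) and 7 old animals of 22 months with late induction (5 females, 2 males). The 7 TRAP libraries came from the same 7 late-induced animals. These groups are called young, old early and old late below, and an old late animal keeps its number in both fractions. Per the series' design text, the question was whether age at induction affects how specific and useful the model is.

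Each library held between 12.897 and 20.449 M estimated counts in all. Levels are counts per M counts of the library (CPM), scaled by edgeR's TMM factors over all 36 libraries, and each gene has 1 value per library. In TRAP, Cx3cr1 itself was at 688 ± 134 CPM against 39.9 ± 5.09 CPM in the paired inputs (SD, n = 7 each). Microglia markers dominated the enrichment, but the other RNA was not removed. The summed CPM of 13 astrocyte markers was 3349 to 4962 in TRAP and 4655 to 5538 in the paired inputs. That of 14 neuron markers, of which Map2 was at 0 in every library, was 9561 to 11516 and 11863 to 12899 in the same order. A TRAP level is therefore read beside the input level throughout. The choroid plexus markers Ttr, Kl, Folr1, Clic6 and Kcnj13 fell into 2 separate ranges over the inputs, which bears on Gas6 below.

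The promoters of the TAM receptors and of Stab1 are shown because these receptors spanned the range from depleted to strongly enriched in TRAP. Each is the 250 bases before a transcription start of the gene in the RefSeq promoter table for GRCm38.p6, written 5′ to 3′ on the gene's strand. Capitals mark GAGGAA, the core of the motif bound by the myeloid factor PU.1, and GGGCGG, the GC box, on either strand. The intervals are chr7:25788734-25788983 for Axl (minus strand), chr2:128698665-128698914 for Mertk (plus strand), chr2:119799264-119799513 for Tyro3 (plus strand) and chr14:31168642-31168891 for Stab1 (minus strand).
Axl: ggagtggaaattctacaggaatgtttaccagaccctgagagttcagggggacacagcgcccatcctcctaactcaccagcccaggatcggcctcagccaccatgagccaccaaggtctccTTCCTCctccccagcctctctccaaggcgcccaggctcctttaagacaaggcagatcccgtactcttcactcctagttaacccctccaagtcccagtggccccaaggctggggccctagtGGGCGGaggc
Mertk: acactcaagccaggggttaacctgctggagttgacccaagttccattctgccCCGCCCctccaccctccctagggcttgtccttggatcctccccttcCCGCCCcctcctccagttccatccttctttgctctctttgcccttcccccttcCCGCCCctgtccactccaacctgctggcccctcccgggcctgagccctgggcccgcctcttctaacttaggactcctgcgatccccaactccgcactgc
Tyro3: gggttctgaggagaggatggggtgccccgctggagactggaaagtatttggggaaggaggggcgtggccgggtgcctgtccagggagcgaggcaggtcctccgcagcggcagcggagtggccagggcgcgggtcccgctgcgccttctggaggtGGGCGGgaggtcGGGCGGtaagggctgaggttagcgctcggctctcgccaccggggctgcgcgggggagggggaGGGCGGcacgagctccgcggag
Stab1: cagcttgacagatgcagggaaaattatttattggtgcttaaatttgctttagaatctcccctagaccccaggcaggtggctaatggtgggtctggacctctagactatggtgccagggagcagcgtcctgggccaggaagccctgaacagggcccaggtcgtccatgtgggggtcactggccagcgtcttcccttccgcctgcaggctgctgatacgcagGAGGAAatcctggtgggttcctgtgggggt

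Promoters of 7 of the 8 genes were in the table. GAGGAA was present in 3 of the 7, those of Axl, Mfge8 and Stab1, against 23.25% of 32851 promoters of the same length. GGGCGG was present in 6 of the 7, with Stab1 as the exception, against 32.74%. TGANTCA, the AP-1 motif, was in 0 of the 7, against 6.749%. Both strands were searched, and no matches overlap in the sequences shown. GAGGAA and the GC box were each present beside genes that were higher in TRAP and genes that were lower. GAGGAA was absent beside Mertk, Gas6 and Pros1, which were higher. A match is a description of the letters and not a test of binding.

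**Figure D1:**
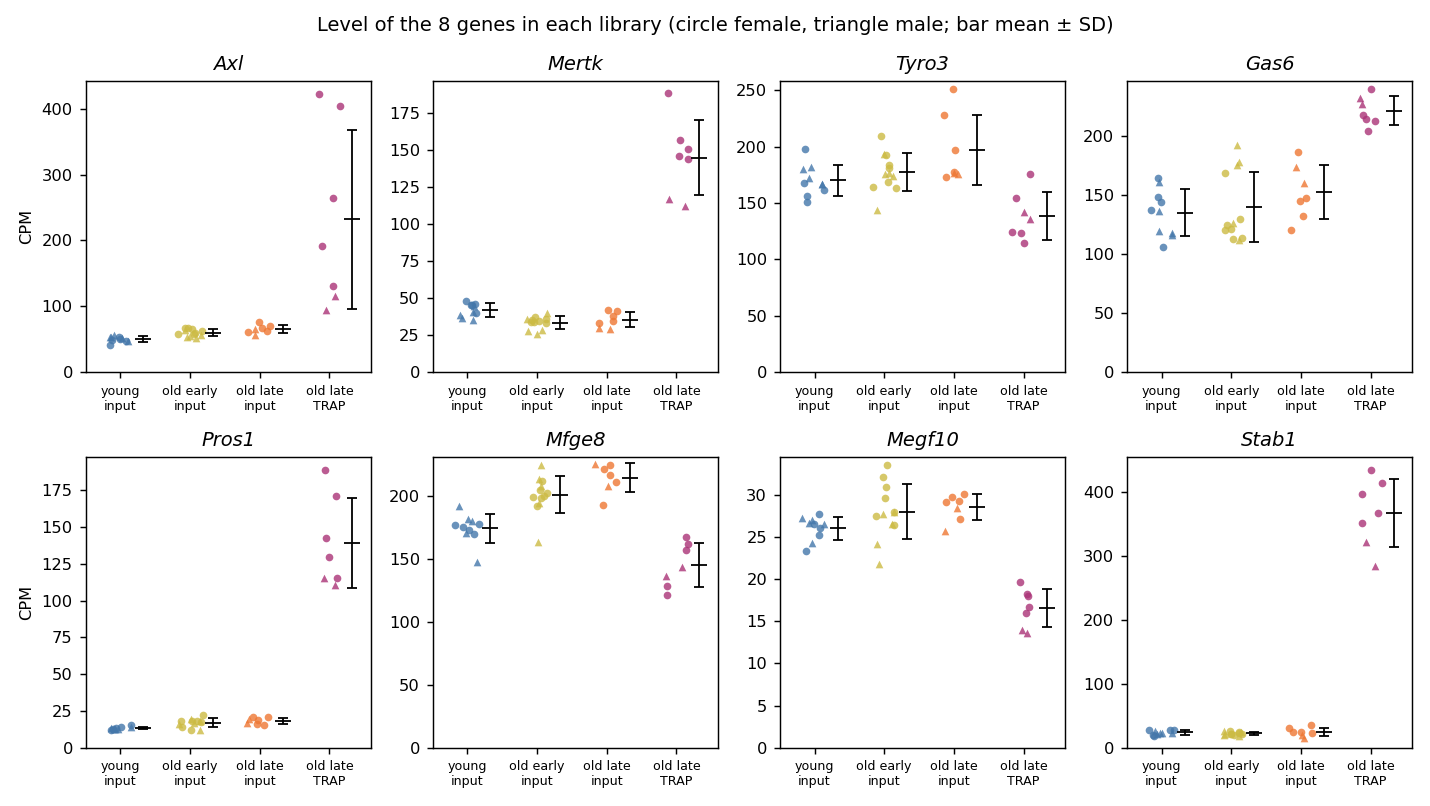
CPM of each gene (vertical axes, each from 0) in the young, old early and old late inputs and the old late TRAP libraries, 1 point per library, with the mean and SD beside each group. Axl, Mertk, Gas6, Pros1 and Stab1 sit higher in TRAP than in any input, Mfge8 and Megf10 sit below their paired inputs, and Axl has the widest spread in TRAP.

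The first comparison asked which of these transcripts were enriched by the pulldown from Cx3cr1 lineage cells. All 8 genes differed between TRAP and paired input at an edgeR adjusted p under 0.05. Axl, Mertk, Gas6, Pros1 and Stab1 were higher and Tyro3, Mfge8 and Megf10 lower. Across all 14596 genes tested 59.2% were called, 30.4% higher and 28.8% lower, so that a call alone was common in this contrast and the size of each ratio carries more information. The median log2 fold change was 1.12 over the 8 genes and -0.02 over all genes tested. The groups did not overlap for 7 of the 8 genes, against 30.1% of all genes.

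Of the TAM receptors Mertk and Axl, both higher in TRAP, Mertk (chromosome 2, 128698997 to 128802188) had the more even enrichment. Its input levels in the old late animals ran from 29.1 to 41.8 CPM with a median of 34.4, and its TRAP levels from 112 to 189 CPM with a median of 146. Every TRAP library lay above every input library of the series. This was a 4.06-fold difference (log2 2.02 ± 0.07, SE; edgeR adjusted p 2.29e-13), and the ratio of TRAP to input within an animal ran from 3.48 to 5.71. Mertk overlaps Gm14011 and Gm23172 in the GENCODE annotation, whose reads cannot be told apart from its own here.

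Axl (chromosome 7, 25756500 to 25788733) was enriched by a similar amount on average but far less evenly. Its paired inputs ran from 55.8 to 75.4 CPM with a median of 65.3, and its TRAP libraries from 94.6 to 423 CPM with a median of 191. No TRAP library fell into the range of the inputs. The difference was 3.27-fold (log2 1.71 ± 0.25, SE; edgeR adjusted p 1.78e-05). Within animals the ratio ran from 1.69 to 6.00, and in females only the log2 fold change was 2.06.

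Tyro3 (chromosome 2, 119799514 to 119818103) went the other way. Its paired inputs ran from 173 to 251 CPM with a median of 178, and its TRAP libraries from 114 to 176 CPM with a median of 136. In TRAP 6 of 7 libraries lay below all paired inputs, and that of animal 7 overlapped them. On the log2 scale the difference was -0.51 ± 0.10 (SE; edgeR adjusted p 0.00038), and TRAP was lower in 7 of 7 animals.

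Both ligands were higher in TRAP, by very different amounts. Pros1 (chromosome 16, 62854334 to 62929340) ran from 15.3 to 20.97 CPM in the paired inputs (median 18.8) and from 110.4 to 189 CPM in TRAP (median 129). The difference was 7.52-fold (log2 2.91 ± 0.12, SE; edgeR adjusted p 1.39e-12). Gas6 (chromosome 8, 13465374 to 13494535) ran from 120.5 to 186 CPM in the paired inputs (median 148) and from 204 to 239.6 CPM in TRAP (median 217). Its groups did not overlap either, but the difference was only 1.45-fold (log2 0.53 ± 0.08, SE; edgeR adjusted p 1.36e-05). The Gas6 gene overlaps Tmem255b in the GENCODE annotation, and reads of overlapping genes cannot be told apart here because strand handling is not given in the sources used here.

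Stab1 (chromosome 14, 31139017 to 31168641) had the highest enrichment of the 8. It ran from 15.9 to 36.3 CPM in the paired inputs (median 24.1) and from 285 to 434 CPM in TRAP (median 368). The lowest TRAP value was thus well above the highest input value. The difference was 14.9-fold (log2 3.90 ± 0.11, SE; edgeR adjusted p 9.59e-15). Nt5dc2, which overlaps Stab1 in the annotation, had a log2 fold change of 0.48 ± 0.15 (SE). Stab2, the second stabilin, averaged 1.37 CPM in the paired inputs and 1.18 CPM in TRAP.

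Mfge8 and Megf10 were lower in TRAP. Mfge8 (chromosome 7, 79133768 to 79149060) ran from 193 to 225 CPM in the paired inputs (median 217) and from 121 to 168 CPM in TRAP (median 143), a difference of -0.57 ± 0.07 on the log2 scale (SE; edgeR adjusted p 2.28e-06). Megf10 (chromosome 18, 57133090 to 57297467), which binds the complement protein C1q on dying cells, ran from 25.7 to 30.2 CPM in the paired inputs (median 29.2) and from 13.6 to 19.7 CPM in TRAP (median 16.8). Its log2 difference was -0.80 ± 0.07 (SE; edgeR adjusted p 2.69e-08). For both genes every TRAP library lay below every paired input.

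Marker lists of the candidate sources place these ratios. The 18 microglia markers had log2 fold changes from 2.93 (Sall1) through 4.19 (C1qb) to 4.45 (Tyrobp), 18 of 18 called higher. Those of the 13 astrocyte markers ran from -1.15 (Sox9) through -0.49 (Slc1a3) to -0.14 (Slc1a2), with 11 called lower. The 13 neuron markers that passed the filter on low counts ran from -0.40 (Stmn2) through -0.22 (Nefl) to 0.03 (Gad2), with 8 called lower. Against these lists, only Stab1 of the 8 genes lay within the microglial range, and it lay within that of the 8 border macrophage markers too (3.45 to 4.04). Pros1, at 2.91, lay just under the lowest microglia marker, and Mertk, Axl and Gas6 lay between the microglial and the astrocyte and neuron ranges. Gas6 also lay within the range of the 9 endothelial markers (0.37 to 1.70). Axl, at 1.71 ± 0.25 (SE), lay above the highest of them (Pecam1, 1.70) by far less than its SE. Tyro3, Mfge8 and Megf10 lay within the astrocyte range, and all 3 lay below the lowest neuron marker. For Tyro3, at -0.51 ± 0.10 (SE), the distance to that marker (Stmn2, -0.40) was only about its SE. Tyro3 and Mfge8 also lay within the range of the 7 mural cell markers tested (-0.72 to 0.09), and Megf10 within that of the 5 oligodendrocyte precursor markers (-1.92 to -0.69). The 8 oligodendrocyte markers ran from -1.62 to -1.05, the 5 fibroblast markers from -1.61 to -0.93, the 5 choroid plexus markers from -2.24 to -1.56 and the 4 blood markers found from -2.63 to -2.18. Because a level in bulk RNA is a sum over cell types, fewer cells of a type and less RNA per cell cannot be told apart in any of these values.

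**Figure D2:**
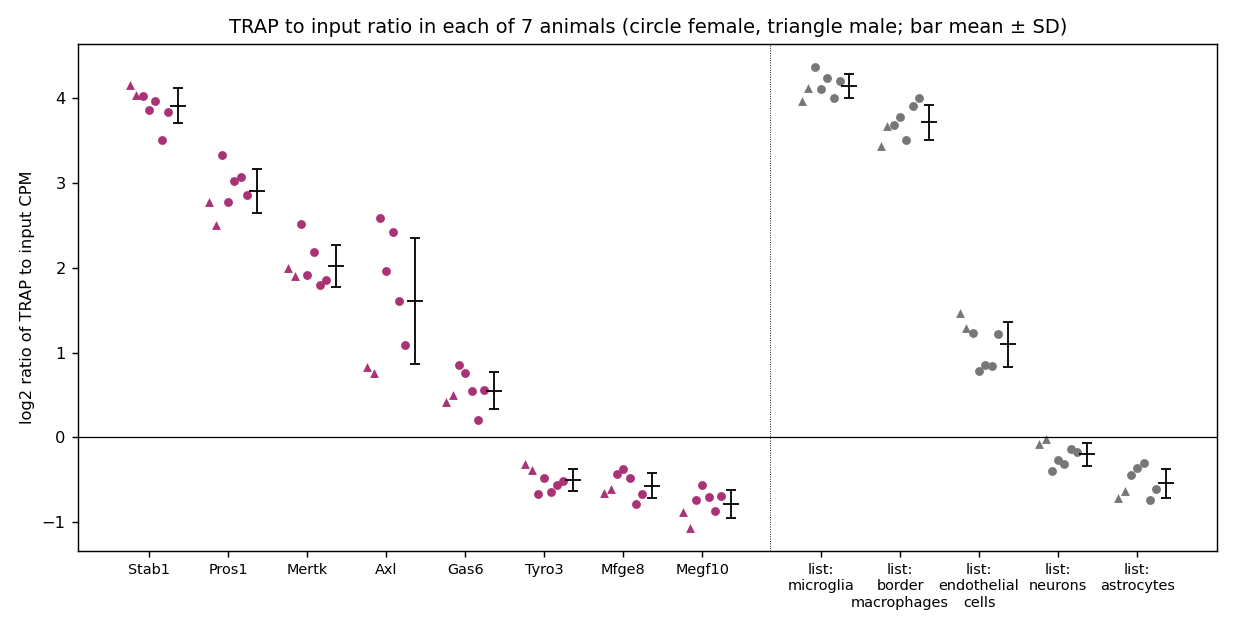
Log2 ratio of TRAP to input CPM within each of the 7 old late animals (vertical axis) for the 8 genes and for the means of 5 marker lists, 1 point per animal, with the mean and SD. Stab1 sits with the microglia and border macrophage lists, Tyro3, Mfge8 and Megf10 sit below 0 in 7 of 7 animals, and the 2 males have the lowest Axl ratios.

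Within animals, the mean ratio of TRAP to input was 15.1 for Stab1, 7.48 for Pros1, 4.07 for Mertk, 3.05 for Axl, 1.46 for Gas6, 0.703 for Tyro3, 0.674 for Mfge8 and 0.58 for Megf10. Each gene changed the same way in 7 of 7 animals. The exact two-sided sign-flip permutation p was 0.015625 for every gene, the smallest that 7 animals can give. These 8 tests share their libraries and adjusting over them leaves the value the same.

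Levels were compared between genes per kilobase of annotated exon. In the old late inputs the order was Gas6 (59.7 ± 8.98 CPM per kb), Mfge8 (45.7 ± 2.47), Tyro3 (31.8 ± 4.97), Axl (13.01 ± 1.28), Mertk (8.17 ± 1.20), Pros1 (4.46 ± 0.561), Megf10 (3.70 ± 0.205) and Stab1 (2.41 ± 0.656, SD, n = 7 throughout). In TRAP, Gas6 again had the highest mean, at 86.7 ± 4.81 CPM per kb, and Axl was next at 46.1 ± 27.1. Stab1 (35.7 ± 5.12), Pros1 (34.02 ± 7.44), Mertk (33.4 ± 5.90) and Mfge8 (30.9 ± 3.76) followed within 1 SD of their neighbours. Tyro3 was at 22.4 ± 3.42 and Megf10 at 2.15 ± 0.295 CPM per kb (SD, n = 7). The ligand Gas6 was thus the most abundant of the 8 transcripts per kilobase in the mean of both fractions. Megf10 was the lowest in TRAP.

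Age was then compared in the inputs. Between old early and young animals 4 of the 8 genes were called, Axl, Pros1 and Mfge8 higher and Mertk lower, where 25.6% of all 14948 genes were called (13% higher, 12.6% lower). Between old late and young animals 5 were called, the same 4 in the same directions and Tyro3 higher, where 34.5% of all genes were called (17% higher, 17.5% lower). Both comparisons use the same 10 young libraries. All young animals were induced early, so age and age at induction cannot be told apart in old late against young. In old early against young, age cannot be told apart from time since induction. Among the inputs, an effect of the index on the sample sheet cannot be told apart from that of group.

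Mertk and Axl moved in opposite directions. Mertk ran from 35.05 to 47.8 CPM in young inputs (median 42.4), from 25.8 to 40.2 CPM in old early inputs (median 34.2) and from 29.1 to 41.8 CPM in old late inputs (median 34.4). The ranges overlapped, with 7 of 12 old early and 4 of 7 old late libraries below all young ones. Its log2 fold changes against young were -0.33 ± 0.06 (SE, edgeR adjusted p 0.00018) in old early and -0.28 ± 0.07 (SE, adjusted p 0.0036) in old late animals. Axl ran from 41.6 to 56.5 CPM in young (median 51.5), from 51.4 to 66.8 CPM in old early (median 58.7) and from 55.8 to 75.4 CPM in old late inputs (median 65.3). Here 9 of 12 old early and 6 of 7 old late libraries lay above all young ones. The log2 fold changes of Axl were 0.25 ± 0.05 (SE, edgeR adjusted p 0.00106) and 0.38 ± 0.06 (SE, adjusted p 2.63e-05).

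Tyro3 ran from 151 to 198 CPM in young (median 167), from 144 to 209 CPM in old early (median 176) and from 173 to 251 CPM in old late inputs (median 178). The groups overlapped widely, and the old late mean was raised by animals 7 and 6, at 251 and 228 CPM. Its log2 fold changes were 0.06 ± 0.06 (SE, edgeR adjusted p 0.472) in old early and 0.21 ± 0.07 (SE, adjusted p 0.0184) in old late animals. The old late call was lost without animal 6 (0.18, edgeR adjusted p 0.0513), without animal 7 (0.14, adjusted p 0.0869), without young replicate 8 (0.19, adjusted p 0.0506) and without both animals (0.10, adjusted p 0.21). The last setting was chosen after seeing the data.

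Pros1 ran from 12.3 to 15.4 CPM in young (median 13.1), from 12.1 to 22.1 CPM in old early (median 17.8) and from 15.3 to 20.97 CPM in old late inputs (median 18.8). In old early animals 9 of 12 libraries lay above all young ones and 2 lay below them. The log2 fold changes were 0.35 ± 0.09 (SE, edgeR adjusted p 0.00293) and 0.46 ± 0.10 (SE, adjusted p 0.000628). In females only the old early value was 0.35 with an adjusted p of 0.0878. Gas6, the other ligand, had log2 fold changes of 0.06 ± 0.10 (SE, edgeR adjusted p 0.698) and 0.21 ± 0.11 (SE, adjusted p 0.151).

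Mfge8 ran from 148 to 193 CPM in young (median 176), from 164 to 225 CPM in old early (median 201) and from 193 to 225 CPM in old late inputs (median 217). Old late and young did not overlap, which held for 1 of the 8 genes and for 6.98% of all genes; old early and young did not overlap for 0 of the 8 and for 1.81% of all genes. The log2 fold changes of Mfge8 were 0.21 ± 0.04 (SE, edgeR adjusted p 0.000433) and 0.31 ± 0.05 (SE, adjusted p 1.73e-05). The mean of Megf10 was 26.1 ± 1.37 CPM over the 10 young, 28.03 ± 3.25 CPM over the 12 old early and 28.6 ± 1.58 CPM over the 7 old late inputs (SD). Its log2 fold changes of 0.10 ± 0.05 and 0.12 ± 0.06 (SE) did not pass the test (edgeR adjusted p 0.131 and 0.101), though the old early one did in females only (0.21, adjusted p 0.0462) and the old late one with upper quartile scaling (0.15, adjusted p 0.0462) and when only both groups compared were fitted (0.14, adjusted p 0.0313). Stab1 averaged 24.04 ± 3.47, 22.6 ± 2.52 and 24.8 ± 6.75 CPM in the same order, with log2 fold changes of -0.09 ± 0.10 and 0.02 ± 0.11 (SE, edgeR adjusted p 0.513 and 0.921). As for Tyro3, animals 6 and 7 had the highest Stab1 of the old late inputs, at 36.3 and 30.3 CPM.

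**Figure D3:**
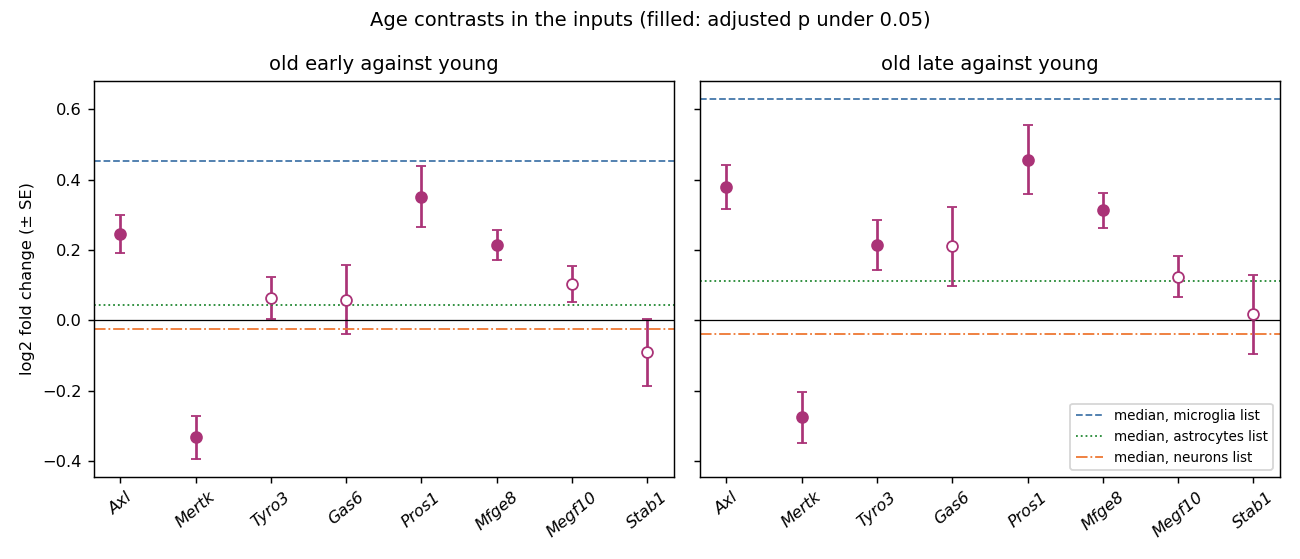
Log2 fold change with its SE (vertical axis) of the 8 genes in old early (left) and old late (right) against young inputs, filled where the edgeR adjusted p is under 0.05, with the medians of 3 marker lists as lines. Mertk is the called decrease on both sides, and every gene lies below the microglia list median of 0.45 on the left and 0.63 on the right.

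The microglia markers moved with age in the same inputs. Their summed level ran from 587 to 678 CPM in young, from 777 to 937 CPM in old early and from 830 to 1197 CPM in old late inputs, 0 of 18 markers was at 0 in a whole group, and 17 and 18 of 18 were called higher, with median log2 fold changes of 0.45 and 0.63. The medians were 0.04 and 0.11 for the astrocyte list, with 5 of 13 higher in each contrast, and -0.02 and -0.04 for the neuron list. Oligodendrocyte markers also moved, with medians of 0.34 and 0.49. The blood markers had medians of 0.93 and 1.47, above the microglia list, with 2 and 4 of 4 called higher. Their part in the values of the 8 genes was not tested. The 8 border macrophage markers, in whose TRAP range Stab1 also lay, had low summed levels in the inputs. Their medians were 11.9, 9.68 and 11.7 CPM in young, old early and old late inputs, with overlapping ranges. Among the genes enriched in TRAP, Stab1 had values near 0 in these inputs and Mertk fell. The part of the microglia or border macrophage markers in the values of the 8 genes was not tested here.

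A further comparison, chosen after seeing the data, scaled each input so that the mean log2 CPM of the microglia list was equal in all of them. On this scale 7 of the 8 genes were called lower in old early and 7 in old late animals, but 84.2% and 86.5% of all genes were called, 83.2% and 85.5% lower, so the count says nothing about these genes. The values of the 5 genes enriched in TRAP follow. Mertk was at -0.79 ± 0.08 and -0.90 ± 0.10 and Stab1 at -0.54 ± 0.11 and -0.61 ± 0.13 (SE) in old early and old late animals, with edgeR adjusted p from 7.26e-10 to 5.46e-05 over these 4 values. With the median of the list in place of its mean, 2 genes were called in old early and 3 in old late animals, Mertk and Stab1 among them in both, and 8928 and 11611 of all 14948 genes were called. Axl was at -0.21 ± 0.06 and -0.26 ± 0.07 (SE, adjusted p 0.000907 and 0.000422) with the mean of the list, but at 0.0061 (adjusted p 0.934) and -0.07 (adjusted p 0.354) with its median. Pros1 was at -0.11 ± 0.09 and -0.19 ± 0.10 (SE, adjusted p 0.238 and 0.0914), and at 0.10 and 0.0060 with the median of the list. Gas6 was at -0.41 ± 0.11 and -0.43 ± 0.13 (SE, adjusted p 0.000817 and 0.00217) with the mean of the list, and at -0.19 (adjusted p 0.128) and -0.24 (adjusted p 0.082) with its median. The calls of Axl and Gas6 thus depended on whether the mean or the median of the list was used, and those of Mertk and Stab1 did not. In old late animals Megf10, which was lower in TRAP, also kept its call, at -0.51 with the mean and -0.32 with the median. Most of all genes were called with either, so a kept call does not set a gene apart. Pros1 passed the test with neither.

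Age at induction was compared between the old late and old early inputs. In edgeR 0 of the 8 genes were called, where 0.0334% of all genes were, and DESeq2 and limma voom also called 0. An unadjusted p under 0.05 was reached by 3, Axl (0.13 ± 0.06), Tyro3 (0.15 ± 0.07) and Mfge8 (0.10 ± 0.05, SE), with edgeR adjusted p of 0.374, 0.377 and 0.421. All 8 log2 fold changes were between 0.02 and 0.15. This contrast is also the test of the difference between both contrasts against young. It does not show that Tyro3 differed from young in late-induced animals only.

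Sex was compared over all inputs with group as a covariate. In edgeR 0 of the 8 genes were called, where 0.174% of all genes were, DESeq2 and limma voom called 0, and 2 had an unadjusted p under 0.05. Mertk, in males against females, was at -0.21 ± 0.06 (SE, edgeR adjusted p 0.146). It was called without old early replicate 1, a male with the highest Mertk of its group (-0.25, adjusted p 0.0126). Megf10 was at -0.10 ± 0.04 (SE, adjusted p 0.433).

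The uneven Axl enrichment was examined per TRAP library. Axl was at 116 and 94.6 CPM in the TRAP libraries of the males, animals 1 and 2, and at 423, 264, 404, 191 and 130.5 CPM in those of the females, animals 3 to 7. Both males lay below all females, with animal 7 closest. This held for 5 of the 8 genes, namely Axl, Mertk, Pros1, Megf10 and Stab1, and for 13% of all genes. In a comparison chosen after seeing the data, the log2 fold change of Axl in males against females came to -1.37 ± 0.40 (SE; edgeR adjusted p 0.222). In this comparison edgeR and limma voom called 0 of the 8 genes, where edgeR called 0.061% of all genes, 5 had an unadjusted p under 0.05, and DESeq2 called 1, Mertk (-0.41, adjusted p 0.0224). The edgeR result for Axl depended on animal 7, without which it was -1.56 with an adjusted p of 0.0311. Whether the enrichment itself differed by sex was tested as an interaction over the 14 paired libraries. It gave -1.28 ± 0.45 (SE, edgeR adjusted p 0.74) for Axl, 0 of 8 calls in edgeR, DESeq2 and limma voom where 0.0% of all genes were called, and 1 unadjusted p under 0.05. That fit held no term for the animal. With the animal as a block the interaction for Axl was -1.16 ± 0.27 (SE, edgeR adjusted p 0.115), also not called. With 2 males in TRAP the difference between the sexes and that between individual animals cannot be told apart.

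Other lists moved with the same animals. In males against females in TRAP, the median log2 fold change was -0.32 for the 18 microglia markers and -0.70 for the 8 border macrophage markers, with 0 called in each. For 8 genes of disease-associated microglia (Clec7a, Itgax, Cst7, Lpl, Spp1, Gpnmb, Csf1 and Apoe), a state described in aged and diseased brain, it was -2.18, with 0 called. In the inputs, which hold more males, the median of the same 8 genes in males against females was -0.44 and edgeR called 2 lower, Gpnmb (-0.64, adjusted p 0.00246) and Itgax (-1.39, adjusted p 0.0429), while Clec7a was at -1.17 (adjusted p 0.0593). Axl in the inputs was at -0.04 ± 0.05 (SE, edgeR adjusted p 0.751). Their score, the mean log2 CPM of the list, was 5.72, 5.48, 8.22, 7.54, 8.25, 7.07 and 6.19 in animals 1 to 7. Across these 7 libraries the score and log2 CPM of Axl had a Pearson r of 0.993 (exact permutation p 0.000397, adjusted p 0.000595 over 3 relations) and a Spearman rho of 0.964 (exact permutation p 0.00278, adjusted p 0.00417). The 2 libraries farthest from the median score were those of the males, and without them r was 0.994 over the 5 females, too few for a test within 1 sex. The list does not hold Axl, but that does not make Axl separate from the state that the list describes. Both the list and the relation were chosen after seeing the data, and the points share library depth and scaling.

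**Figure D4:**
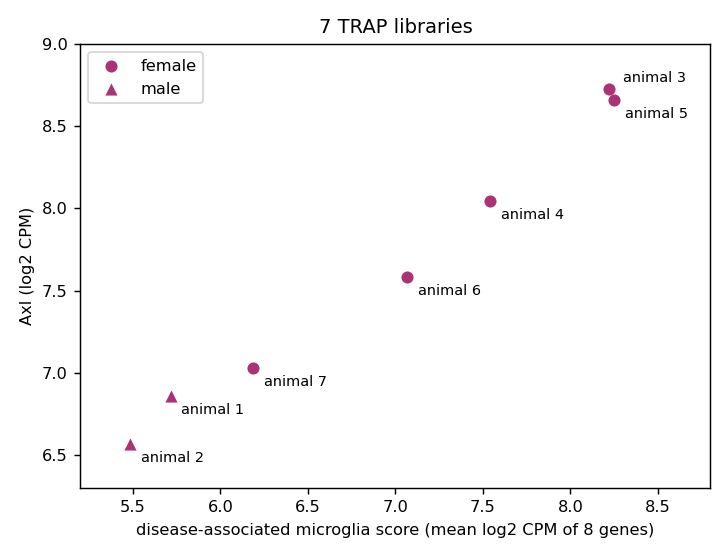
Log2 CPM of Axl (vertical axis) against the mean log2 CPM of 8 genes of disease-associated microglia (horizontal axis) in the 7 TRAP libraries, circles for females and triangles for males. Animals 1 and 2 lie lowest on both axes and animals 3 and 5 highest.

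The levels of Gas6 were set beside the choroid plexus markers. Over the 29 inputs the choroid plexus score, the mean log2 CPM of 5 markers, was 1.45 to 3.32 in 14 libraries and 6.09 to 7.33 in the other 15. The first range held 4 young, 8 old early and 2 old late libraries, and the second 6, 4 and 5. Gas6 ran from 105.7 to 132 CPM (median 119.97) in the libraries with low scores and from 136.5 to 192 CPM (median 161) in those with high scores, with no overlap. Among the libraries with low scores Gas6 and the score had a Pearson r of 0.149 (permutation p 0.612, n = 14) and a Spearman rho of 0.182 (permutation p 0.535), and without the 2 farthest libraries r was 0.085. Among those with high scores r was 0.841 (permutation p 0.0002, adjusted p 0.000595, n = 15) and rho 0.868 (permutation p 0.0001, adjusted p 0.0003), and without the 2 farthest libraries r was 0.848. These relations were chosen after seeing the data.

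**Figure D5:**
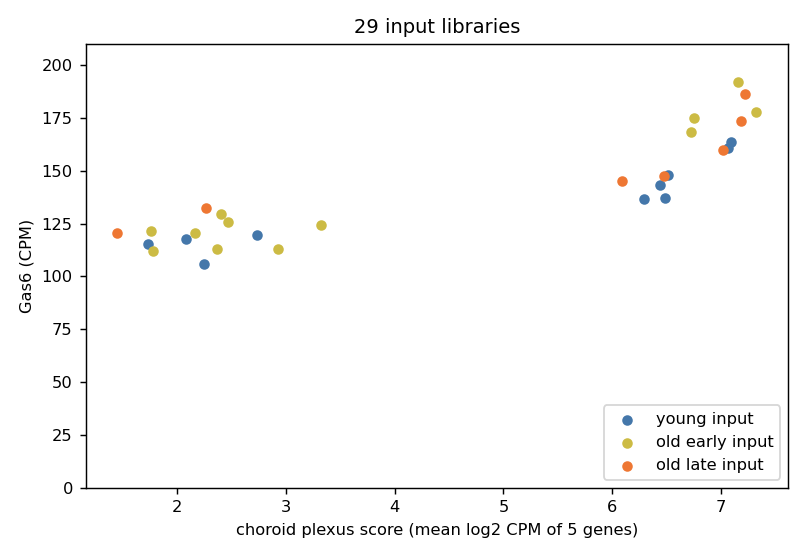
CPM of Gas6 (vertical axis, from 0) against the choroid plexus score (horizontal axis) in the 29 inputs, coloured by group. The 14 libraries with low scores lie between 105.7 and 132 CPM, and the 15 with high scores between 136.5 and 192 CPM.

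Within each range of the score the mean of Gas6 was lowest in the young group. With low scores the mean was 115 ± 6.15 CPM over 4 young and 119.9 ± 6.64 CPM over 8 old early inputs (SD), and both old late ones were at 120.5 and 132 CPM. With high scores the mean was 148 ± 11.8 CPM over 6 young, 178 ± 9.86 CPM over 4 old early and 162 ± 17.4 CPM over 5 old late inputs (SD). These means are not at an equal score. In the high range the score ran from 6.29 to 7.09 in young, 6.72 to 7.33 in old early and 6.09 to 7.22 in old late inputs. With the score as a covariate, added after seeing the data, the log2 fold changes of Gas6 were 0.14 (edgeR adjusted p 0.011) in old early and 0.15 (adjusted p 0.0144) in old late against young, so that Gas6 then passed the test in both. That fit takes the same slope for both ranges, whereas Gas6 followed the score within the high range only. The choroid plexus list itself was lower in TRAP than in input (median log2 fold change -2.20), whereas Gas6 was higher.

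The other genes of the clearance pathway were taken from lists of 45 genes, 44 of them matched. In TRAP 25 of 40 tested were called higher and 7 lower, with a median log2 fold change of 0.53. Of all genes tested 30.4% were called higher and 28.8% lower. The named increases were Trem2 (4.32), a lipid receptor of microglia, C1qa (4.27), a chain of the complement protein C1q, Havcr2 (4.20), which encodes the phosphatidylserine receptor TIM-3, and Itgb5 (3.75), a partner of integrin alpha-v, the receptor for Mfge8. The named decreases were Anxa1 (-0.90), Edil3 (-0.73), a bridging protein of the same family as Mfge8, the engulfment adaptor Gulp1 (-0.67) and Tub (-0.29), a proposed ligand of Mertk. Of 12 other efferocytosis receptors tested, 10 were higher and 0 lower, and of 7 other bridging or recognised proteins 3 were higher and 3 lower. The shedding proteases Adam17 (2.38) and Adam10 (0.89), which cleave Axl and Mertk from the cell surface, were both higher. Of the 3 genes of the vitamin K cycle, which gamma-carboxylates Gas6 and protein S, Vkorc1 was higher (1.80), Vkorc1l1 lower (-0.24) and Ggcx was at -0.02. For the engulfment machinery 4 of 8 were higher and 2 lower, for phosphatidylserine exposure and do-not-eat-me signals 4 of 6 were higher and 1 lower, and for TAM feedback Socs3 was higher (1.31).

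In old early against young inputs 9 of 39 pathway genes were called higher and 4 lower, where 13% and 12.6% of all genes were. The median log2 fold change was 0.04 against 0.01 over all genes. The named increases were Lgals3 (1.34), a galectin that binds Mertk, Trem2 (0.91), C1qa (0.72) and Thbs1 (0.71), and the named decreases Adgrb1 (-0.26), the phosphatidylserine receptor BAI1, Tub (-0.21), Lrp1 (-0.19) and Elmo2 (-0.17). In old late against young inputs 13 were higher and 3 lower, where 17% and 17.5% of all genes were, with a median of 0.12. The named increases were Lgals3 (1.74), Trem2 (1.19), C1qa (0.97) and Socs3 (0.90), and the named decreases Tub (-0.34), Adgrb1 (-0.34) and Elmo2 (-0.24). Mertk fell in inputs in which Lgals3 and the ligand Pros1 rose and Tub fell, and a link between them was not tested. Lgals3 was low throughout, with means of 1.43, 3.63 and 4.92 CPM in young, old early and old late inputs. Between induction ages edgeR, DESeq2 and limma voom called 0 of 39 pathway genes, where edgeR called 0.0334% of all genes. An unadjusted p below 0.05 was reached by 6. Between the sexes of the inputs they called 0, where edgeR called 0.174% of all genes, and 4 had an unadjusted p below 0.05.

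Likeness was measured as the Pearson r of log2 CPM with each of 13053 genes over the 29 inputs. These points share group and scaling and differ in choroid plexus score. The genes nearest to Axl were Cd68 (0.876), Gfap (0.859) and Mpeg1 (0.848), and those nearest to Mertk were Plin4 (0.835), Pdzd2 (0.823) and Myh9 (0.806). For Tyro3 they were Cobl (0.907), Fhod3 (0.892) and Dpp10 (0.881), and for Gas6 Cdr2 (0.967), Spint2 (0.959) and Ppp1r1b (0.952). Pros1 lay nearest to Anxa3 (0.813), Csrp1 (0.807) and Grn (0.802), Mfge8 to Rasgrp3 (0.824), Fzd9 (0.792) and Cdc42ep1 (0.778), Megf10 to Tubb4a (0.838), Cntn2 (0.789) and Pogk (0.787), and Stab1 to Pcsk1 (0.744), Ptgfrn (0.724) and Acot11 (0.681). No gene was among the 3 nearest of more than 1 of the 8.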

How the data were processed

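The authors deposited 1 table with an estimated count per gene and library, marked raw per the file headers, in which 77.4% of nonzero values were not whole. The submitters' processing notes name mm10 and DESeq2; aligner, counting tool and strand handling are not given in the sources used here. Counts were rounded and fitted by edgeR 4.0.16 in R 4.3.3 with its quasi-likelihood test after TMM scaling (low counts dropped by filterByExpr at 10, Benjamini-Hochberg adjustment over all genes, threshold 0.05), with DESeq2 1.42.0 and limma 3.58.1 as alternatives. TRAP against input used 14 libraries with sex, age, induction and sex contrasts all 29 inputs with group and sex, males against females in TRAP the 7 TRAP libraries, and the sex interaction the 14. SEs came from the F statistic. Log2 CPM used a prior count of 2. The tests were tested on simulated data.

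Samples were grouped by age, induction and fraction from the labels. Libraries of 1 animal are paired by the animal number in the labels, and their deviations from group means correlated by 0.292 to 0.439, against a median of -0.085 between animals. Animals are separate within groups, so p-values of contrasts within 1 fraction measure spread between animals. TRAP against input and the sex interaction use both libraries of each animal. Their main fits had no animal term, so their p-values mix spread within and between animals.

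The 8 genes and the lists (159 genes, 157 matched, 3 by identifier) were chosen with earlier results of these data known. Named genes were the 8, the 4 largest called changes per contrast and direction among pathway genes, the 3 most alike per gene, the lowest, middle and highest microglia, astrocyte and neuron markers, and Cx3cr1. Others were chosen after their values were seen. Coordinates are those of the table, and 91.2% of 32891 matched genes start within 1 kb of RefSeq GRCm38.p6. Exon lengths are from GENCODE.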

Additional observations from a re-analysis of the deposited data

Results flagged for a closer look

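Mfge8 in the young inputs had 1 library far from the others. Replicate 4, a male, was the lowest at 7.21 log2 CPM (148 CPM), and the next lowest was at 7.41, a gap of 0.531 of the group's range, against a critical value of 0.466 for 10 libraries. Of 32 such values tested this was the only 1 past its critical value, where chance gives about 1.6. Leaving out any single library kept Mfge8 called higher in both old groups, with log2 fold changes from 0.19 to 0.23 in old early and from 0.29 to 0.33 in old late animals.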

How the results depend on the processing

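All 8 genes remained called in the same direction for TRAP against input under every alternative run: other scalings, no filter, DESeq2, limma voom, females only, and each library left out. With the animal as replicate block 8 were also called, Axl at 1.62, and the block changed no call. Upper quartile scaling shifted the median of all genes from -0.02 to -0.17 and gave 3280 higher and 6372 lower calls, and library size alone shifted it to -0.13 with 3564 and 5748, against 4442 and 4198. Gas6 was then at 0.39 and 0.43, still higher. In old early against young 4 genes, and in old late against young 4 to 5, were called with each library left out.

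Several values changed sign, and of them Axl on the scale of the microglia list had been called (-0.21). Gas6 in old early against young was -0.13 in females only. Stab1 in old late against young was -0.011 with only both groups fitted, -0.16 without animals 6 and 7 (which gave -0.014 for Mertk and -0.070 for Stab1 between induction ages), and -0.084 to 0.098 with each library left out. Megf10 between induction ages was -0.021 in females only. Between sexes, 0 to 1 genes were called with each library left out, Pros1 ran from -0.063 to 0.0056, and Mfge8 from -0.013 to 0.031, with -0.00038 in early-induced groups only. On the scale of the microglia list, the median of the list gave 2 calls in old early and 3 in old late animals, with Axl at 0.0061 and Pros1 at 0.10 and 0.0060. Between sexes in TRAP, DESeq2 called 1 gene, leaving out each library gave 0 to 1, and Tyro3 ran from -0.030 to 0.14 and Mfge8 from -0.097 to 0.012. In females only Megf10 was called in old early animals (0.21, edgeR adjusted p 0.0462), and without old late animal 2 Pros1 was called lower on the microglia scale (-0.25, adjusted p 0.0329). The cause of these changes was not tested.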
